A study of Homo sapiens with 12 samples.

Results

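The difference in drug response by SMARCA4 status was measured in Z-138 cells, grown from a mantle cell lymphoma and long established in culture, as the drug effect in SMARCA4 knockdown cells minus the drug effect in control cells. On the log2 scale this interaction is 0 where the 2 treatments add, that is, where the drug multiplies a gene's level by the same factor with and without the knockdown. All 12 libraries of the series entered it, 3 in each of 4 groups, and 12602 of the 13820 genes in the table had enough counts to be tested. The groups were cells with a control shRNA in DMSO (control_DMSO) or in 3 µM ibrutinib with 3 µM venetoclax (control_IbrVen), and cells with an shRNA against SMARCA4 in DMSO (SMARCA4kd_DMSO) or in both drugs (SMARCA4kd_IbrVen). Doxycycline was given in all 4 groups. In each knockdown library the loss of SMARCA4 goes with its own shRNA construct, so the effects of the 2 cannot be told apart. Whether the 3 replicates of a group were separate cultures is not in the labels; the spread behind each p-value is that of these libraries and may be technical.

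SMARCA4 is 1 of the alternative ATPases of SWI/SNF, a complex that moves nucleosomes and opens chromatin at enhancers and promoters. Ibrutinib blocks BTK, the kinase that carries B cell receptor signals towards NF-kB and ERK. Venetoclax fills the groove with which the survival protein BCL2 holds back proteins that start apoptosis. Sterol genes are switched on by SREBP2, fatty acid genes by SREBP1, and amino acid synthesis and transport genes by ATF4, whose translation rises when translation initiation is restrained. NEAT1 is the long noncoding RNA that scaffolds nuclear paraspeckles. RNA18S5 stands for the 18S RNA of the small ribosomal subunit, and MT-CO1 is the mitochondrially encoded catalytic subunit of cytochrome c oxidase.

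Library totals ran from 7279503 to 22528537 counts. SMARCA4 (ENSG00000127616) stood at 577, 598 and 555 CPM (each library's counts put on one scale by its TMM-adjusted size) in control DMSO libraries and 588, 599.5 and 642 CPM in control libraries under drug. Knockdown libraries held 177, 174 and 159 CPM in DMSO and 167, 174 and 184 CPM under drug, so the knockdown and control libraries did not overlap. Its interaction was -0.04 (SE 0.08, 95% interval -0.19 to 0.12), which lies inside 1.5-fold. The 8 defining B cell and mantle cell markers, among them PAX5, CD79A, SOX11 and CCND1, were all present. Of the markers of other cells, 3 of 16 T and NK cell genes had a row in the table, with a summed level of 16.8 to 21.0 CPM in control and 1.75 to 3.71 CPM in knockdown libraries. Monocyte and macrophage markers had rows for 0 of 12 genes, and fibroblast and epithelial markers for 1 of 13, COL1A1. None of these 4 genes passed the interaction threshold, and their part in the results was not tested. In bulk libraries such as these, fewer cells of a type and less RNA per cell cannot be told apart.

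The drug moved 3 genes by a different factor in the 2 arms: RNA18S5 rose in control and fell in knockdown cells, MT-CO1 rose less in knockdown cells, and NEAT1 fell in control cells with no fall past the threshold in knockdown cells. These were 3 of 12602 genes at a Benjamini-Hochberg adjusted p under 0.05 in edgeR's quasi-likelihood test (0.0238%), 1 above 0 and 2 below. At an unadjusted p under 0.05 there were 679 genes (5.39%), 305 above 0 and 374 below. The median interaction of all genes was near 0 (-0.0047). The 3 calls did not hold under every alternative fit. Among alternatives on the log2 scale, RNA18S5 passed in 20 of 23, NEAT1 in 17 of 26 and MT-CO1 in 12 of 26.

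RNA18S5 (ENSG00000272060) moved in opposite directions. In control cells it went from 71983, 77202 and 76524 CPM in DMSO to 93428, 90450.0 and 88255 CPM under drug. In knockdown cells it went from 84997, 81946 and 86431 CPM in DMSO to 59702, 73332 and 74914 CPM under drug. The drug libraries lay above the DMSO libraries in control cells and below them in knockdown cells, with no overlap in either arm. RNA18S5 rose by 0.27 in control cells (SE 0.06, adjusted p = 0.00841). Under knockdown it fell by 0.29 (SE 0.06, adjusted p = 0.00553). The interaction was -0.55 (SE 0.08, 95% interval -0.72 to -0.39, adjusted p = 0.00227). Multiplying the single effects predicts 101830.0 CPM under both perturbations, and the observed mean was 69316 ± 8364 CPM (SD, n = 3).

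The share of ribosomal RNA is given here for depth and scaling; RNA18S5 makes up most of it, so it is no second observation. Summed over its 4 rows, ribosomal RNA made up 11.8% ± 0.262 (SD, n = 3) of all counts for control cells in DMSO, 13.4% ± 0.298 in control libraries under drug, 12.99% ± 0.614 in knockdown DMSO libraries and 10.9% ± 1.17 in knockdown libraries under drug. The lowest single value, 9.53%, was in SMARCA4kd_IbrVen replicate 1, which also had the fewest counts. Without that library the interaction of RNA18S5 was -0.46 (adjusted p = 0.000434), and its call was lost without control_IbrVen replicate 3 (-0.57, adjusted p = 0.0582) or SMARCA4kd_DMSO replicate 3 (-0.54, adjusted p = 0.0524). RNA28S5, the large subunit RNA, overlapped between treatments in control cells (1.77%, 1.78% and 1.57% of counts in DMSO, 1.63%, 1.88% and 1.75% under drug). In knockdown cells its drug libraries lay below the DMSO libraries (1.83%, 1.73% and 2.4% in DMSO, 0.947%, 1.51% and 1.24% under drug). Its interaction was -0.79 (SE 0.26, unadjusted p = 0.0166, adjusted p = 0.9001) and did not pass. MT-RNR2 and MT-RNR1, the mitochondrial ribosomal RNAs, stood at -0.16 and -0.14 and did not pass either. These rows are multicopy or have near-identical copies, so how reads were assigned among copies can set their level. The libraries were primed at the 3′ end of polyadenylated RNA, and the share of ribosomal RNA carried through such priming was not tested as a source of the difference.

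NEAT1 (ENSG00000245532) fell under drug in control cells, and its decline was not past the threshold in knockdown cells. Its levels were 285, 299 and 271 CPM in control DMSO libraries and 170.1, 195 and 184 CPM in control libraries under drug. Knockdown libraries held 239, 209.8 and 222 CPM in DMSO and 214, 215 and 178 CPM under drug. The control libraries did not overlap between treatments, while 2 of the 3 knockdown drug libraries lay within the range of the knockdown DMSO libraries. In control cells NEAT1 fell by 0.64 (SE 0.06, adjusted p = 1e-08). Under knockdown its drug effect was -0.14 (SE 0.06, adjusted p = 0.399). The interaction was 0.50 (SE 0.09, 95% interval 0.31 to 0.68, adjusted p = 0.0257). Multiplying the single effects predicts 143 CPM, against 202 ± 21.3 CPM (SD, n = 3) observed. MALAT1, the neighbouring nuclear long noncoding RNA, had an interaction of -0.01 and KCNQ1OT1 of 0.42, and NEAT1 was the 1 member to pass among 20 tested snoRNA host and nuclear long noncoding RNAs, whose median was 0.01.

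MT-CO1 (ENSG00000198804) rose in both arms, by less in knockdown cells. It stood at 767, 782 and 820.1 CPM in control DMSO libraries and 1156, 1226 and 1244 CPM under drug. Knockdown libraries had 719.6, 689.5 and 785 CPM in DMSO and 839, 907 and 882 CPM under drug. The drug libraries lay above the DMSO libraries in both arms. MT-CO1 rose by 0.61 (SE 0.05, adjusted p = 5.11e-13) without the knockdown and by 0.26 (SE 0.05, adjusted p = 0.001) with it, and the interaction was -0.35 (SE 0.07, 95% interval -0.50 to -0.21, adjusted p = 0.0328). Multiplying the single effects predicts 1119 CPM, and 876 ± 34.2 CPM (SD, n = 3) was observed. Of 13 mitochondrially encoded genes, MT-CO1 passed and 11 were below 0, where 6431 of all 12602 genes were below 0. The median of the 13 was -0.15 (-0.08 without SMARCA4kd_IbrVen replicate 3 and -0.09 without SMARCA4kd_DMSO replicate 3 or with library totals as scaling). Over all genes it was -0.0047. The summed counts of the 13 genes, as a share of library totals without TMM scaling, departed by -0.05 (SE 0.09). MT-ND6, the light-strand subunit of complex I, had 571, 559 and 616 CPM in control DMSO and 256, 297 and 280.3 CPM in knockdown drug libraries, with an interaction of -0.23 (unadjusted p = 0.00521, adjusted p = 0.677). It fell in both arms, by 0.20 and 0.44. Nuclear genes of oxidative phosphorylation had a median interaction of 0.04 over 42 genes, with 0 past the threshold in either direction.

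**Figure D1:**
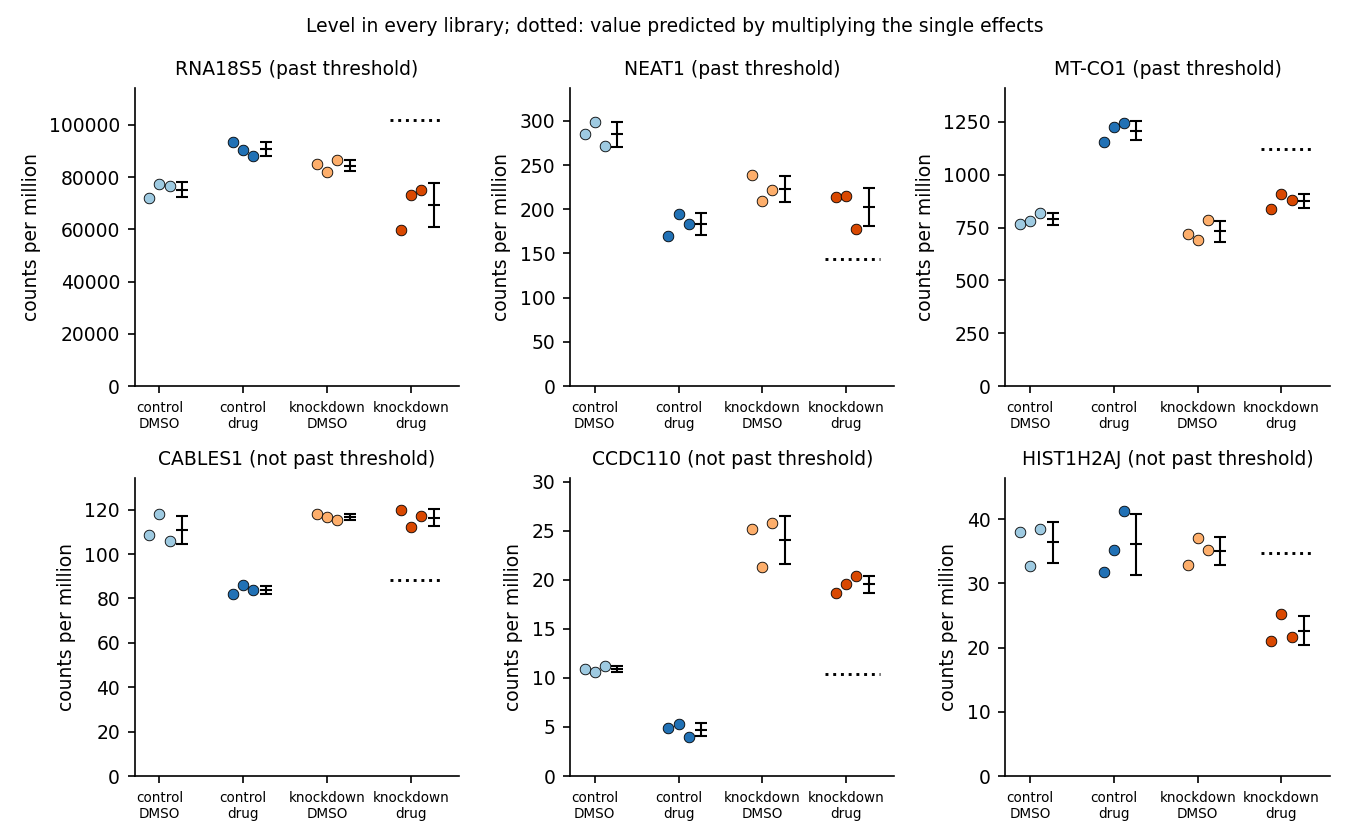
CPM (linear axis from 0) in each of the 12 libraries for the 3 genes past the interaction threshold (top row) and 3 of the genes just outside it (bottom row). Points are libraries, black bars the mean ± SD of 3, and the dotted line the level predicted by multiplying the single effects. RNA18S5, MT-CO1 and HIST1H2AJ in knockdown cells under drug lay below the dotted line, and NEAT1, CABLES1 and CCDC110 above it.

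Just inside the threshold stood MT-CO1 (adjusted p = 0.0328) and just outside it CABLES1 (adjusted p = 0.0729), a gene of a CDK-binding adaptor protein. CABLES1 had 108, 118 and 106 CPM in control DMSO libraries and 82.2, 85.9 and 83.8 CPM under drug, against 118, 116 and 115 CPM in knockdown DMSO libraries and 119.8, 112 and 117 CPM under drug. CABLES1 fell by 0.40 in control cells (SE 0.06, adjusted p = 1.64e-05), and in knockdown cells the drug and DMSO libraries overlapped. Its interaction was 0.40 (SE 0.09). The coiled-coil gene CCDC110 went from 10.9, 10.6 and 11.2 CPM to 4.9, 5.3 and 3.99 CPM in control cells and from 25.2, 21.3 and 25.8 CPM to 18.6, 19.6 and 20.4 CPM in knockdown cells. Its interaction was 0.90 (SE 0.20, adjusted p = 0.0778). CCDC110 fell under drug in control cells by 1.21 (adjusted p = 6.3e-07), while the effect of -0.31 in knockdown cells had an adjusted p of 0.183.

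Further down the order, TNFRSF21, PLCB1 and PSAP each fell under drug in control cells and had an interaction above 0. TNFRSF21, which encodes death receptor 6, had 52.2, 47.2 and 47.1 CPM in control DMSO and 31.8, 32.5 and 31.8 CPM in control drug libraries, and 105, 111 and 112 CPM in knockdown DMSO against 90.6, 96.1 and 92 CPM in knockdown drug libraries. It fell by 0.61 in control and 0.23 in knockdown cells, with an interaction of 0.38 (SE 0.10, adjusted p = 0.273). PLCB1, a phospholipase C, fell by 0.41 in control cells and its effect was 0.09 in knockdown cells (interaction 0.50, SE 0.13, adjusted p = 0.234). PSAP, the precursor of the lysosomal saposins, fell by 0.30 in control cells and stood at -0.04 in knockdown cells (interaction 0.26, SE 0.07, adjusted p = 0.337). The lysosomal sialidase gene NEU1 stood at 0.45 (SE 0.13, adjusted p = 0.410). The 26 tested autophagy and lysosome genes had a median of -0.03 with 13 above 0, so these 2 do not stand for the list.

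Below 0, RASGRP3, an exchange factor that couples B cell receptor signals to RAS, rose in control cells by 0.87 (adjusted p = 0.011) and had an effect of -0.49 (adjusted p = 0.432) in knockdown cells. Its interaction was -1.37 (SE 0.31, adjusted p = 0.0783), from levels of 3.5, 5.07 and 5.25 CPM and 9.91, 8.91 and 6.29 CPM in control cells and 4.37, 3.47 and 4.66 CPM and 2.49, 3.1 and 3.4 CPM in knockdown cells, DMSO first. The proteasome gene PSMD14 stood at -0.37 (SE 0.09, adjusted p = 0.176) and BCCIP, which encodes a BRCA2-binding protein, at -0.35 (SE 0.09, adjusted p = 0.234). The row named GAPDH stood at -1.26 (SE 0.32, adjusted p = 0.234), but it held 21 to 77 counts per library, far below what this enzyme's gene yields in most cells. Its reads may have been shared with near-identical pseudogenes, and its value is uncertain.

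Additivity needs more than a p that misses the threshold, so the 95% interval of the interaction was set against a margin. It lay inside 1.5-fold in either direction for 7280 of 12602 genes (57.8%) and inside 2-fold for 9739 (77.3%). The share followed the depth of each gene. At a mean level of 7 log2 CPM and over, 98.3% of 1207 genes were additive within 1.5-fold, at 5 to 7 it was 97.8% of 3247, and at 3 to 5 it was 73.9% of 3776. At 1 to 3 the share was 4.5% of 2845 genes, and under 1 it was 0% of 1527 genes. Below 3 log2 CPM a 1.5-fold departure could therefore not be told from additivity for most genes at this depth.

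**Figure D2:**
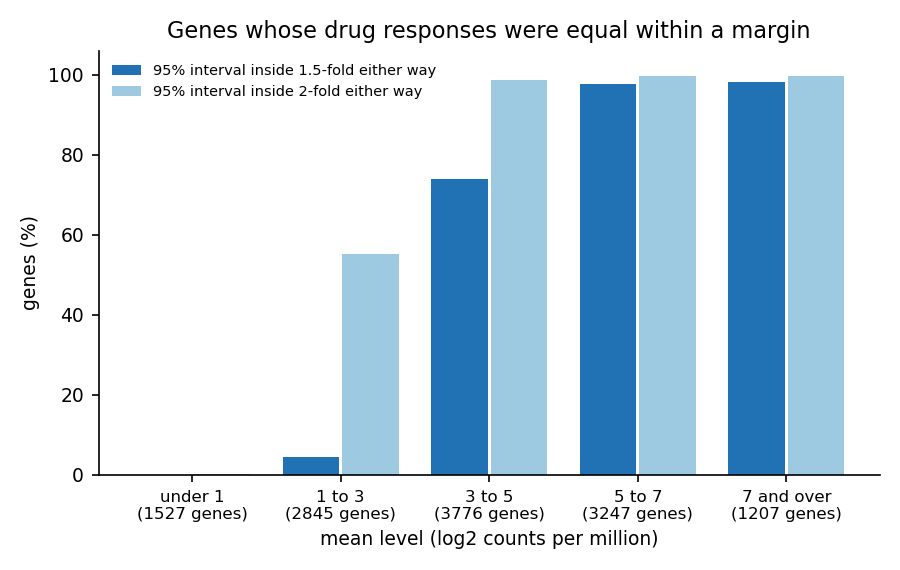
Share of genes (percent, linear axis from 0) whose 95% interval of the interaction lay inside 1.5-fold (dark bars) or 2-fold (light bars), by mean level in log2 CPM, with the number of genes under each class. Within 1.5-fold the share went from 0% under 1 log2 CPM to 98.3% at 7 and over.

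As contrasts, the mean drug effect over both arms and the mean knockdown effect over both treatments are orthogonal to the interaction in this balanced design. Genes were sorted by these 2 mean effects. Where groups differ in precision, for example by depth, their estimates can still be correlated with that of the interaction, and this was not tested. The mean drug effect passed the threshold for 382 genes (3.03%), 208 higher and 174 lower. The mean knockdown effect passed for 5599 genes (44.4%), 2722 higher and 2877 lower. Both passed for 252 genes, of which 197 (78.2%) were additive within 1.5-fold and 230 (91.3%) within 2-fold. Genes past the drug threshold alone numbered 130, with 57.7% additive within 1.5-fold, and those past the knockdown threshold alone numbered 5347, with 66.8%. The share was 57.8% over all genes and 50% over the 6873 genes past neither threshold. These shares were higher where the median SE was smaller: 0.113 for both, 0.148 for knockdown alone, 0.152 for drug alone and 0.210 for neither. At an unadjusted p under 0.05 for the interaction stood 18.3% of the 252 genes, against 5.39% of all genes.

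An unadjusted p under 0.05 for the interaction was found in 68 of the 382 genes past the mean drug threshold (17.8%). Among the 6873 genes past neither mean threshold the share was 4.67%. Both tests used the same estimate of each gene's spread, and a gene whose spread is estimated too low can pass both. The 2 calls are therefore not independent although the contrasts are orthogonal, and how far this sets the difference was not tested. The drug response was larger in knockdown cells for 180 of the 382 genes and smaller for 202, and the median interaction along the drug's own direction was -0.01. For the 36 genes with a mean drug effect of at least 2-fold it was larger for 12 and smaller for 24, with a median of -0.37. Of these 36, 2 were additive within 1.5-fold, as their intervals were wide (median half-width 1.16), and 0 passed the interaction threshold.

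The 252 genes past both mean thresholds were then split by direction. For comparison, 5.39% of all genes and 17.8% of the 382 past the mean drug threshold had an unadjusted p under 0.05. Where drug and knockdown both raised a gene, 3 of 64 had an unadjusted p under 0.05 and the median interaction was 0.01. CBS, which makes cystathionine, rose by 0.40 in either arm, from 18, 16.1 and 18.3 to 20.9, 23.4 and 24.9 CPM in control and from 54.5, 45.9 and 53.8 to 67.7, 70.7 and 66.5 CPM in knockdown cells (interaction 0.00, 95% interval -0.26 to 0.27). The ubiquitin-conjugating enzyme gene UBE2J1 had an interaction of -0.18 (95% interval -0.37 to 0.02). Where the drug raised and the knockdown lowered a gene, 15 of 63 had an unadjusted p under 0.05, among them MT-CO1. The desaturase FADS1 rose by 0.53 in control and 0.57 in knockdown cells (interaction 0.04, 95% interval -0.27 to 0.35), although its knockdown libraries held 8.36 to 14.3 CPM against 27.1 to 41.9 CPM in control libraries. MS4A1, which encodes CD20, rose by 0.31 in control cells and stood at 0.17 (adjusted p = 0.188) in knockdown cells, with an interaction of -0.13 (95% interval -0.30 to 0.03).

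Where the drug lowered and the knockdown raised a gene, 14 of 45 had an unadjusted p under 0.05, against 5.39% of all genes. The median interaction of these 45 was 0.13. CCDC110 and BTG2, an antiproliferative gene, were of this kind. BTG2 fell by 0.75 in control cells and stood at -0.32 (adjusted p = 0.2025) in knockdown cells, with an interaction of 0.43 (adjusted p = 0.909). SORBS2, which encodes an actin-associated adaptor, went down by much the same factor, from 12.8, 14.4 and 15.8 to 7.34, 5.81 and 8.1 CPM in control and from 24.3, 26.1 and 28.7 to 16.8, 13.4 and 13.3 CPM in knockdown cells (interaction 0.12, 95% interval -0.27 to 0.50). Where both lowered a gene, 14 of 80 had an unadjusted p under 0.05, beside the same 5.39% of all genes, and the median was -0.05. The collagen gene COL9A3 fell by 0.30 and 0.47, with an interaction of -0.16 (95% interval -0.43 to 0.10).

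The 2 drug comparisons share no library. The drug passed for 178 genes in control cells (1.41%), 110 higher and 68 lower, and for 165 in knockdown cells (1.31%), 104 higher and 61 lower. In both arms 46 rose, 20 fell and 1, RNA18S5, went opposite ways. Past the threshold in control cells alone were 111 genes, of which 97 had the same sign in knockdown cells, and in knockdown cells alone 98, of which 92 had the same sign in control cells. Of the genes past the threshold in 1 arm alone, 1, NEAT1, passed the interaction threshold, so for the others a difference between the arms was not shown. Across genes, which are not independent replicates, the 2 drug effects had Pearson's r = 0.276 over all 12602 genes and 0.543 over the 4454 genes with a mean of at least 5 log2 CPM.

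**Figure D3:**
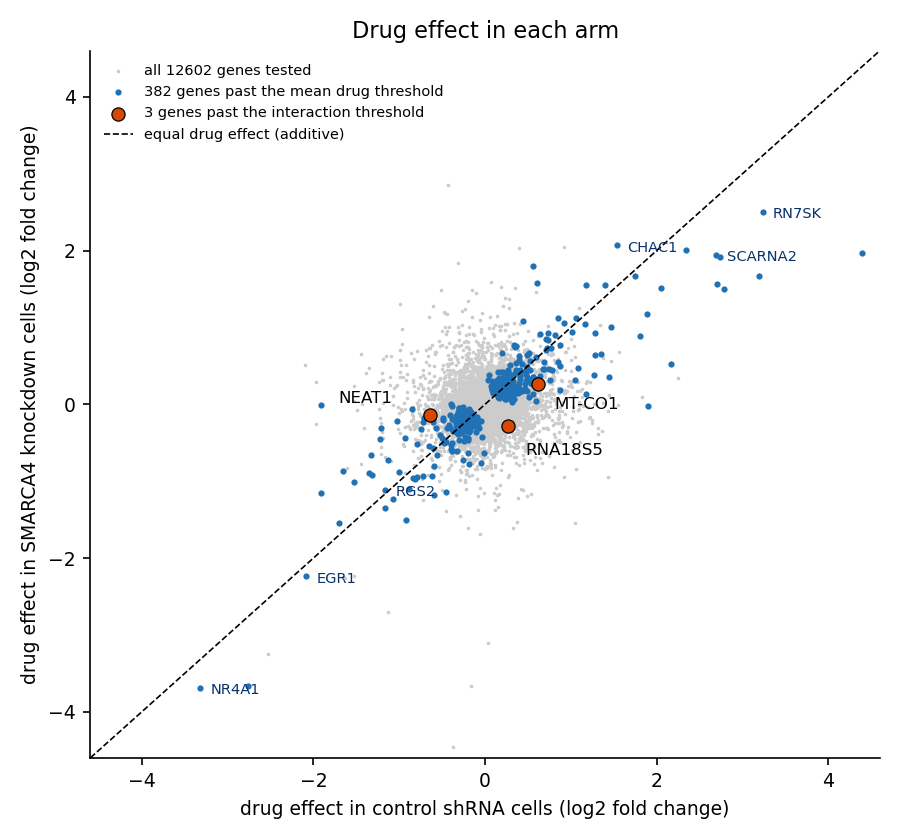
Drug effect (log2 fold change) in control cells on the horizontal axis and in knockdown cells on the vertical axis for 12602 genes, with the 382 genes past the mean drug threshold in blue and the 3 past the interaction threshold in orange. The dashed line marks equal effects. The blue genes were chosen by the mean of the 2 effects plotted, so they lie away from 0 along that line by choice, and RNA18S5 lies in the quadrant of opposite signs.

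Some short structured RNAs rose strongly under drug in both arms, and none of the 25 tested passed the interaction threshold. SCARNA2, a guide RNA of the Cajal body, went from 5.7, 4.71 and 6.8 CPM to 38.4, 34.4 and 38.8 CPM in control cells and from 6.89, 5.64 and 5.9 CPM to 21.7, 24.2 and 24.5 CPM in knockdown cells. It rose by 2.69 (SE 0.13) and 1.95 (SE 0.13), and the interaction was -0.75 (SE 0.19, unadjusted p = 0.000292, adjusted p = 0.234). RN7SK, the RNA that holds back the elongation factor P-TEFb, went from 2.4, 2.05 and 3.46 CPM to 22.4, 22.6 and 29.5 CPM in control cells and from 4.48, 5.54 and 4.66 CPM to 21.8, 29.4 and 31.2 CPM in knockdown cells. RN7SK reached overlapping levels in both drug groups from different DMSO levels, and its interaction was -0.73 (SE 0.26, adjusted p = 0.738). TERC, the telomerase RNA, stood at -0.44 (SE 0.12, adjusted p = 0.273), RPPH1, the RNase P RNA, at -0.73 (SE 0.20, adjusted p = 0.339), and SNORD46 at -1.09 (SE 0.24, adjusted p = 0.0778).

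Of 25 members of that list tested, 8 rose in control cells and 5 in knockdown cells, where 110 and 104 of all 12602 genes rose. An interaction below 0 was found for 22 of 25, against 6431 of all genes, and 8 were below 0 at an unadjusted p under 0.05, against 374 of all genes. The median interaction was -0.48 against -0.0047 over all genes, with median drug effects of 0.93 in control and 0.35 in knockdown cells. The 12 small Cajal body RNAs in the annotation were all below 0 (median -0.31). Reads of these RNAs were few: all 192 such rows held 0.0944% of counts for control cells in DMSO and 0.114% under drug, and 0.1003% for knockdown cells in DMSO and 0.109% under drug. This sum, as a share of library totals without TMM scaling, departed by -0.15 (SE 0.05). It covers 192 rows, and the list median covers 25 genes with TMM scaling, so the 2 values are not alike in measure.

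Most histone genes had an interaction below 0 too, without passing the threshold. HIST1H2AJ had 38, 32.7 and 38.4 CPM in control DMSO, 31.8, 35.1 and 41.2 CPM in control drug, 32.8, 37.1 and 35.2 CPM in knockdown DMSO and 21, 25.2 and 21.7 CPM in knockdown drug libraries. Only the last group stood apart, and the interaction was -0.61 (SE 0.14, adjusted p = 0.0778). The linker histone gene HIST1H1B fell by 0.42 in knockdown cells (adjusted p = 0.00038) and stood at -0.03 in control cells, with an interaction of -0.39 (SE 0.11, adjusted p = 0.339). HIST1H3A rose from 1.6, 1.09 and 1.43 CPM to 6.53, 3.75 and 5.2 CPM in control cells and held 1.86, 3.04 and 1.86 CPM and 2.1, 1.79 and 2.52 CPM in knockdown cells, with an interaction of -1.91 (SE 0.43, adjusted p = 0.0778).

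Of 51 histone genes tested, 0 passed, 43 were below 0, and 11 were below and 2 above 0 at an unadjusted p under 0.05. Over all 12602 genes these counts were 6431 below 0, 374 below and 305 above. The histone median was -0.34, and -0.23 without control_IbrVen replicate 3. Genes of this family share near-identical coding sequence, and reads may have been split among them. Their summed counts are dominated by high genes such as HIST1H4C. They took 0.991% and 0.968% of counts in control libraries and 0.931% and 0.934% in knockdown libraries, DMSO first. As a share of library totals, without TMM scaling, the sum departed by 0.04 (SE 0.04), so it showed no such shift. Replication-dependent histone messages and the short RNAs above mostly lack a poly(A) tail, and the RNA18S5 row moved in the same direction. How far library priming takes part in these lists was not tested. Genes of DNA replication (36 tested, median 0.02) and mitosis (37 tested, median 0.03) had 0 members past the threshold. Of these, 35 and 36 were additive within 1.5-fold, beside 57.8% of all genes, a share that followed the depth of each gene.

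**Figure D4:**
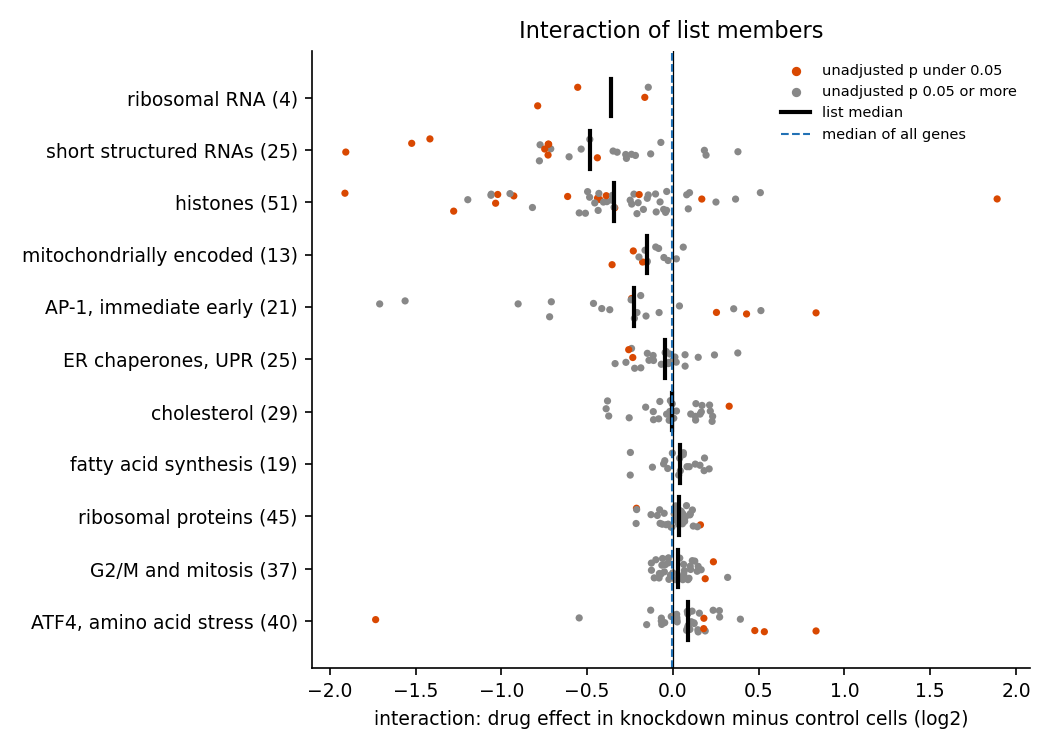
Interaction (log2) of the tested members of 11 gene lists, 1 point per gene, with the number tested after each name. Orange points have an unadjusted p under 0.05, thick bars are list medians and the dashed line is the median of all genes. Medians ran from -0.48 for short structured RNAs to 0.09 for ATF4 and amino acid stress genes.

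Among ATF4 and amino acid stress genes, 9 of 40 rose under drug in control cells and 18 of 40 in knockdown cells, where 1.41% and 1.31% of all genes passed in either direction. The glutathione-degrading enzyme gene CHAC1 rose from 6, 7.73 and 5.97 CPM to 19.5, 18.9 and 18.5 CPM in control cells and from 4.59, 5.97 and 4.08 CPM to 17.8, 20.3 and 20.9 CPM in knockdown cells. Its drug effects were 1.53 (SE 0.15) and 2.07 (SE 0.14), with an interaction of 0.53 (SE 0.21, unadjusted p = 0.0153, adjusted p = 0.894). PSAT1, of serine synthesis, rose by 0.64 and 0.91 (interaction 0.27, SE 0.14), and the cystine transporter gene SLC7A11 by 0.85 and 1.12 (interaction 0.27, SE 0.21). SESN2, a stress-induced brake on mTORC1, rose by 0.81 and 0.90 (interaction 0.09, 95% interval -0.12 to 0.29).

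PCK2, the mitochondrial PEP carboxykinase, had 19.6, 22 and 22.1 CPM in control DMSO and 24.7, 22.2 and 25.7 CPM in control drug libraries, against 11.6, 13.1 and 11.7 CPM and 18.1, 19.9 and 19.6 CPM in knockdown cells. It rose by 0.67 (adjusted p = 8.66e-05) in knockdown cells, its effect in control cells was 0.20 (adjusted p = 0.565), and the interaction was 0.48 (SE 0.16, adjusted p = 0.600). ATF4 itself rose by 0.34 (adjusted p = 9.28e-06) in knockdown cells and stood at 0.16 (adjusted p = 0.118) in control cells, with an interaction of 0.18 (SE 0.07, adjusted p = 0.9001). DDIT4, a stress-induced mTORC1 inhibitor gene at 0.242 to 2.03 CPM, went the other way (interaction -1.73, SE 0.69, adjusted p = 0.890).

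Of these 40 ATF4 and amino acid stress genes, 22 passed for the mean drug effect, all higher, against 3.03% of all genes, and 0 passed the interaction threshold. The interaction was above 0 for 31 of 40, against 6171 of all 12602 genes. Its median was 0.09 (0.15 with library totals as scaling), against -0.0047 over all genes (0.06 with library totals). Within 1.5-fold, 31 were additive, beside 57.8% of all genes, a share that followed the depth of each gene. At an unadjusted p under 0.05, 5 were above 0 and 1 below, against 305 and 374 of all genes. The larger count in knockdown cells is thus no shown difference between the arms for any single gene.

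To show the letters that ATF4 with C/EBP partners is known to bind, the 250 bases before each gene's start were searched for TGATGNAA on both strands. Promoters of the RefSeq table (GRCh38.p14) were matched for 27 of the 40 members, and 3 of these (11.1%) held the letters, against 870 of 27305 promoters (3.19%). The windows below, 26 bases either side of the match, run 5′ to 3′ on the gene's strand, with the match in capitals. In CHAC1 the match is on the opposite strand. SREBF2, the gene of SREBP2, which rose by 0.48 and 0.40, is shown with its match to TCACNCCAC, the sterol regulatory element, held by 1 of 22 matched cholesterol genes (4.55%), 1 of the 27 matched genes of the ATF4 list (3.7%) and 239 of all promoters (0.875%). ASNS, asparagine synthetase, rose by 0.32 in knockdown cells, and ATF3, a stress transcription factor, stood at 1.02 there (adjusted p = 0.0902). A match is a description of sequence and not of binding.
ASNS, chr7:97872443-97872502, minus strand: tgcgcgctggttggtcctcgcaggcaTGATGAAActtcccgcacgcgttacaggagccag
CHAC1, chr15:40953236-40953295, plus strand: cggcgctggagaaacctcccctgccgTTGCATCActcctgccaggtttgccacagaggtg
ATF3, chr1:212565190-212565249, plus strand: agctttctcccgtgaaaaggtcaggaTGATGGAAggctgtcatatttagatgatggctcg
SREBF2, chr22:41832946-41833006, plus strand: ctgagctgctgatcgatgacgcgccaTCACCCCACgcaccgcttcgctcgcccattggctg

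Cholesterol genes that rose under drug did so by like factors in several cases. FDFT1, squalene synthase, went from 63.3, 55.7 and 68.8 CPM to 105, 100.0 and 105 CPM in control cells and from 77.9, 76.6 and 74.7 CPM to 129, 131 and 119 CPM in knockdown cells. It rose by 0.72 and 0.73 (interaction 0.01, 95% interval -0.19 to 0.20), and multiplying its single effects predicts the 126 CPM that was observed. EBP, a sterol isomerase, had 65, 60.0 and 61.8 CPM in control DMSO, 59.1, 65.1 and 69.5 CPM in control drug, 50.9, 52 and 48.3 CPM in knockdown DMSO and 66, 65.2 and 64.5 CPM in knockdown drug libraries. It rose in knockdown cells by 0.38 (adjusted p = 0.000708), with an interaction of 0.33 (SE 0.10, adjusted p = 0.530). DHCR7, the last enzyme of the Kandutsch-Russell branch, rose by 0.88 and 0.50 (interaction -0.37, SE 0.20, adjusted p = 0.914).

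Of 29 cholesterol genes tested, 5 rose in control and 12 in knockdown cells (all genes past the threshold: 1.41% and 1.31%). Of these 29, 0 passed the interaction threshold and 24 were additive within 1.5-fold, beside 57.8% of all genes, a share that followed depth. Their median interaction was 0.00 with 14 above 0, where 6171 of all 12602 genes were above 0. Among fatty acid genes, SCD, the stearoyl-CoA desaturase, rose from 141, 152 and 148 CPM to 264, 252 and 219 CPM in control cells and from 160.1, 165 and 162 CPM to 312, 259.9 and 296 CPM in knockdown cells (interaction 0.10, 95% interval -0.08 to 0.27). FASN, fatty acid synthase, rose by 0.28 and 0.34. Of 19 tested, 6 rose in control and 5 in knockdown cells, against the same 1.41% and 1.31% of all genes, with a median interaction of 0.04 and 0 past the threshold.

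**Figure D5:**
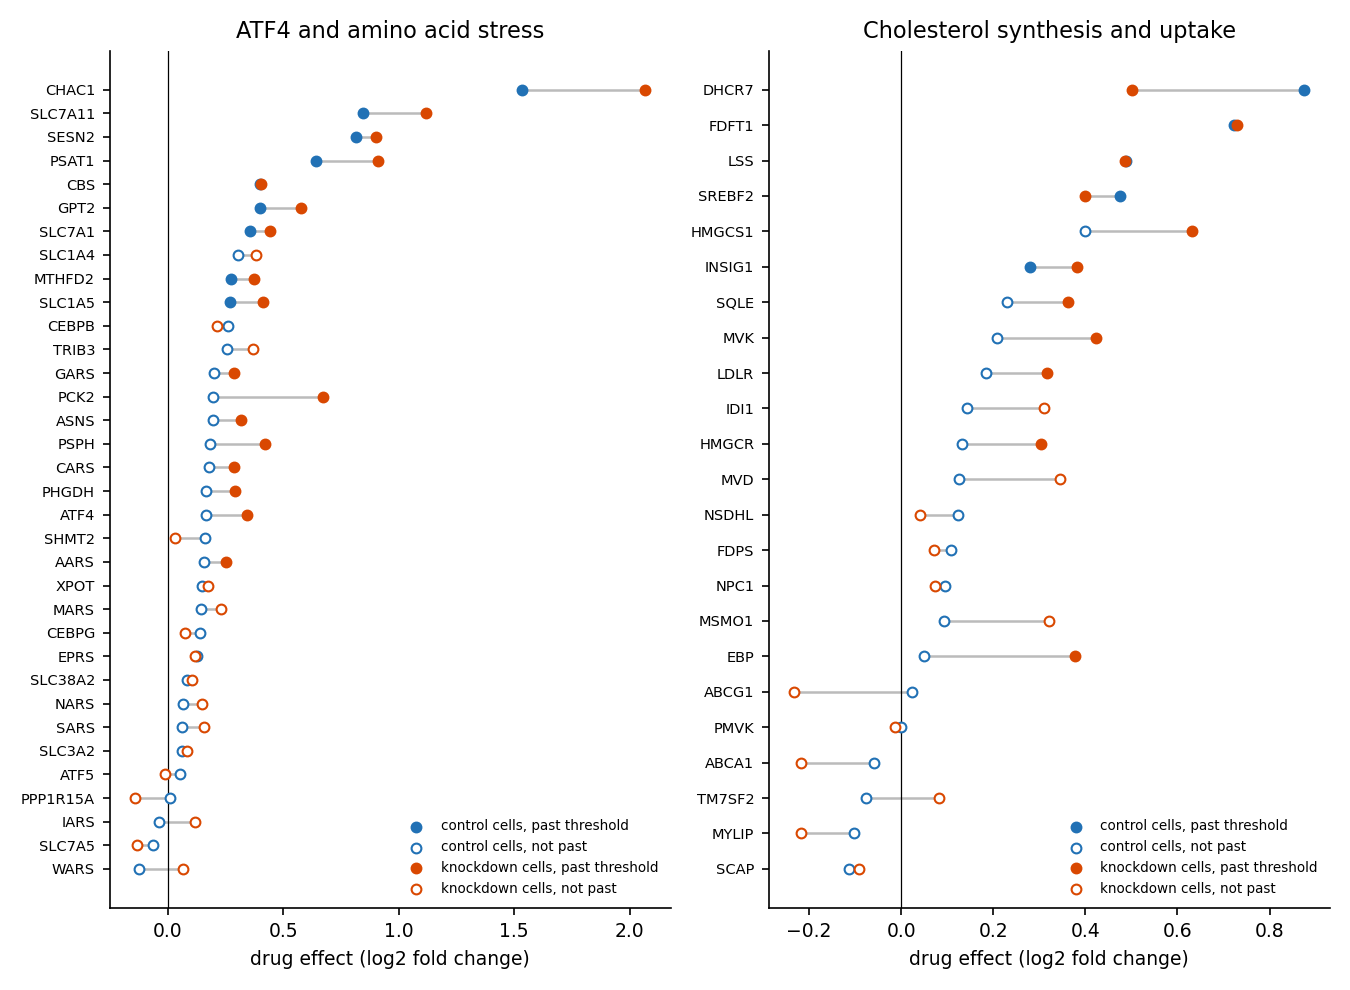
Drug effect (log2 fold change) in control cells (blue) and knockdown cells (orange) for the ATF4 and amino acid stress genes (left, 34 genes) and cholesterol genes (right, 23 genes) with a mean of at least 3 log2 CPM. Filled points passed the threshold in that arm. CHAC1, on the left, had the largest effects, 1.53 and 2.07, and FDFT1, on the right, had 0.72 and 0.73.

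Endoplasmic reticulum chaperone genes rose in 7 of 25 cases in control and 3 of 25 in knockdown cells, beside 1.41% and 1.31% of all genes past the threshold. HSPA5, which encodes BiP, rose in both, by 0.23 and 0.30 (interaction 0.07, 95% interval -0.06 to 0.21), and XBP1, a transcription factor of the unfolded protein response, by 0.49 and 0.35 (interaction -0.14). CALR, calreticulin, rose by 0.33 in control cells and stood at 0.07 in knockdown cells (interaction -0.26, SE 0.12, adjusted p = 0.909), and PDIA4 at 0.31 and 0.07 (interaction -0.23, SE 0.10, adjusted p = 0.909). The list median was -0.04, with 0 past the threshold. It turned to 0.02 when library totals replaced TMM scaling, which moved the median of all genes to 0.06.

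Immediate early and ERK feedback genes, which lie downstream of the B cell receptor, had wide intervals. EGR1, an immediate early transcription factor, had 55.5, 126 and 150.4 CPM in control DMSO and 40.5, 125 and 191 CPM in knockdown DMSO libraries, against 24.2, 35.3 and 18.6 CPM and 29.1, 31 and 18.1 CPM under drug. The drug libraries were all below the DMSO libraries, and the spread within DMSO left an interaction interval of -2.28 to 1.97. KLF6 was steadier. It fell by 0.61 in knockdown cells (adjusted p = 0.00111), stood at -0.39 in control cells (adjusted p = 0.0898), and had an interaction of -0.22 (95% interval -0.53 to 0.08). Among the 21 immediate early genes tested, AP-1 members included, 2 fell in control and 4 in knockdown cells, 10 passed for the mean drug effect, all lower, and 0 passed the interaction threshold. Of all genes 1.41%, 1.31% and 3.03% passed these 3 drug tests. The median interaction was -0.22, and 0.16 without SMARCA4kd_DMSO replicate 3, -0.36 without SMARCA4kd_DMSO replicate 1 and -0.10 without SMARCA4kd_IbrVen replicate 3.

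RGS2, a brake on G-protein signalling, fell in both arms, from 40.5, 44.8 and 44.4 CPM to 21.9, 17.7 and 17.9 CPM in control and from 34.8, 32.1 and 36.3 CPM to 16.9, 15.8 and 15.5 CPM in knockdown cells (interaction 0.06, 95% interval -0.23 to 0.34). RGS1 fell by 1.31 and 0.92 (interaction 0.39, SE 0.26). The ERK phosphatase gene DUSP5 fell by 1.65 in control cells (adjusted p = 2.08e-05) and stood at -0.87 (adjusted p = 0.0518) in knockdown cells, with an interaction of 0.79 (SE 0.37, adjusted p = 0.910). Of 13 ERK feedback genes 0 passed the interaction threshold. Among 30 B cell identity and receptor genes 0 passed either, and 21 were below 0, where 6431 of all 12602 genes were below 0. At an unadjusted p under 0.05, 2 were below and 1 above, against 374 and 305 of all genes. The list median was -0.07 (-0.04 without control_IbrVen replicate 1 or SMARCA4kd_DMSO replicate 3, -0.01 with library totals as scaling), against -0.0047 over all genes. The kinase gene SYK stood at -0.26 (SE 0.11, adjusted p = 0.9001).

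The genes of both drug targets were additive within 1.5-fold, as were most BCL2 family genes. BTK, the target of ibrutinib, had 49.1, 48.1 and 45.5 CPM in control DMSO, 42.2, 43.5 and 44.5 CPM in control drug, 26.4, 29.9 and 26.8 CPM in knockdown DMSO and 21.1, 23.3 and 24.1 CPM in knockdown drug libraries (interaction -0.13, 95% interval -0.38 to 0.11). BCL2, the target of venetoclax, went from 36.4, 38.4 and 37.2 CPM to 33.2, 30.6 and 31.3 CPM in control cells and from 35.2, 41.5 and 34.1 CPM to 32.7, 30.2 and 30.9 CPM in knockdown cells (interaction 0.01, 95% interval -0.24 to 0.26). MCL1, a survival gene tied to venetoclax resistance, had an interaction of -0.04 (95% interval -0.21 to 0.14). BCL2L1, which encodes BCL-XL, stood at 44.6, 46.7 and 47.3 CPM in knockdown DMSO against 23.2, 22.9 and 23.5 CPM in control DMSO libraries, and its interaction was -0.15 (95% interval -0.43 to 0.12).

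Among the death genes, BBC3, which encodes PUMA, had an interaction of 0.00 (95% interval -0.23 to 0.22), PMAIP1, which encodes NOXA, -0.15 (-0.31 to 0.02), and BAX, the pore-forming effector, -0.24 (-0.49 to 0.00). BNIP3, a mitochondrial BH3 protein gene, stood at -0.39 (SE 0.19, adjusted p = 0.912). Of 4 survival and 12 death genes tested 0 passed, and 3 and 9 were additive within 1.5-fold. Over all genes the share was 57.8%, and it followed the depth of each gene. The exception among the survival genes, BCL2L2, had 0.363 to 1.33 CPM and an interval of 0.15 to 2.85. Of 27 SWI/SNF subunit genes 0 passed and 22 were additive within 1.5-fold, beside the same 57.8% of all genes. SMARCA2, the alternative ATPase, had an interaction of 0.07 (95% interval -0.14 to 0.27).

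Departure also depends on the scale. On the linear CPM scale, where additivity means equal differences and not equal factors, 1 gene passed, GPR183, a receptor that guides B cells by oxysterols (limma adjusted p = 0.0473). GPR183 went from 24.8, 24.3 and 24.9 CPM to 16.1, 15.1 and 13.7 CPM in control cells and from 2.3, 2.39 and 2.53 CPM to 1.57, 2.15 and 2.41 CPM in knockdown cells. Equal differences would predict -7.32 CPM, which no gene can have, while equal factors predict 1.46 CPM and 2.05 CPM was observed. Its log2 interaction was 0.49 (SE 0.28, adjusted p = 0.937). The linear departures of RNA18S5 and MT-CO1 had an adjusted p of 0.0576 in limma, and that of NEAT1 0.185.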

How the data were processed

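Per the labels, RNA was isolated with RNeasy and libraries were made with Lexogen QuantSeq, which reads 3′ ends. Per the submitters' processing notes, bcl2fastq 2.17.1.14, HISAT2, HTSeq and hg19 were used; for the other versions, the annotation and the strand setting: not given in the sources used here. What the authors deposited is a table of whole-number counts for 13820 genes, 1656 without a symbol. Columns were matched by name. The name of 1 column lacks its treatment (control shRNA, first replicate); every other sample had its own column, so it stands here for control_IbrVen replicate 1.

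Genes were kept by filterByExpr (minimum count 10, total 15), which removed 1218. Counts were scaled by TMM and fitted with 1 coefficient per group in edgeR 4.0.16 (R 4.3.3; robust quasi-likelihood, 8 residual degrees of freedom, biological coefficient of variation 5.69%). F tests are two-sided, adjusted by Benjamini-Hochberg, threshold 0.05. SE is the effect divided by the square root of F (for 10 genes, from the fit's information). "Rose" and "fell" are used past the threshold. The 33 lists and the genes were chosen with earlier results of these data known. Named genes were the targets, BCL2 family members, genes past the interaction threshold and the next to 20 in all, up to 4 per list by smallest interaction p, and the largest mean drug and knockdown effects in each combination of signs. Other list members, TLE4 and the sequence examples were named after their values were seen.

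Gene types came from GENCODE 29 (GRCh38) for 97.4% of tested genes; as the files use hg19, no gene positions are given, and promoter positions are those of RefSeq's GRCh38.p14. The fit was tested on simulated data. Alternatives were other scalings and filters, DESeq2 1.42.0, limma-voom 3.58.1, a replicate block, a minimum change, rows left out, a thinned library, the linear scale, each library left out and, added after seeing the data, a fit that is not robust. The values of 1 gene are not reported here; counts over lists include it.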

Additional observations from a re-analysis of the deposited data

Results flagged for a closer look

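For 3 genes the drug effect differed between control and knockdown cells by the test of the interaction itself, in edgeR's quasi-likelihood test over 12602 genes. They are RNA18S5 at -0.55 (adjusted p = 0.00227), NEAT1 at 0.50 (adjusted p = 0.0257) and MT-CO1 at -0.35 (adjusted p = 0.0328). Among alternatives on the log2 scale that could give a value, RNA18S5 passed in 20 of 23, NEAT1 in 17 of 26 and MT-CO1 in 12 of 26, and each kept its sign in all of them.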

How the results depend on the processing

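The interaction passed for 3 genes. It passed for the same 3 with DESeq2 size factors, upper quartile scaling, a filter at 5 CPM, the deepest library thinned and the replicate number as a block. The replicate block gave 3 genes, 1 higher and 2 lower. Whether libraries with the same number share a culture or a day is not in the labels. Of 18 same-numbered pairs of libraries, 0 had deviations correlated above 0.1 (-0.12 to 0.08, other pairs -0.09 to 0.09). With 3 libraries per group, such correlations cannot show whether the numbers mark pairs. Library totals as scaling gave 4 genes, 3 higher and 1 lower, adding CABLES1 and CCDC110 and losing MT-CO1. The DESeq2 Wald test gave 4, 2 of them higher, adding CABLES1, and limma-voom gave 4, adding RNA28S5. Without a filter there were 2, 1 of them lower. With a 2-fold minimum change there were 0, 0 higher and 0 lower (20 at an unadjusted p under 0.05). Without ribosomal RNA rows, and also without short structured RNA rows, 1 passed, NEAT1, and 0 lower; without ribosomal rows and with library totals it was 2, 1 of them lower. On the linear scale 1 passed and 0 lower. The fit that is not robust, chosen after seeing the data, called 3, with RNA28S5 in place of MT-CO1. The cause of these shifts was not tested.

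Leaving out each library in turn gave 0 to 6 genes, 0 to 2 higher and 0 to 4 lower. There were 0 without control_IbrVen replicate 3 (760 at an unadjusted p under 0.05) and without SMARCA4kd_DMSO replicate 3 (638), and 6 without control_DMSO replicate 3, where TLE4, CABLES1 and PSMD14 joined. There was 1, RNA18S5, without control_DMSO replicate 1, control_DMSO replicate 2 or SMARCA4kd_IbrVen replicate 1. Without the column that names no treatment, control_IbrVen replicate 1, 3 passed: RNA18S5, MT-CO1 and HIST1H2AJ, with NEAT1 at 0.45 (adjusted p = 0.0783). Calls for the drug in control cells ran from 109 to 194 and in knockdown cells from 92 to 200. The lowest were without control_DMSO replicate 1 (109), control_IbrVen replicate 1 (110) or control_DMSO replicate 2 (114) in control cells, and without SMARCA4kd_IbrVen replicate 1 (92) or SMARCA4kd_DMSO replicate 3 (103) in knockdown cells. Genes additive within 1.5-fold numbered 6692 to 7329 over the other alternatives. Library totals as scaling turned the medians of the autophagy and lysosome genes (0.04) and the SWI/SNF genes (0.01) above 0, with all genes at 0.06.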
